A study of Mus musculus with 11 samples.

Results

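Mouse macrophages that take up lipid and debris express a recognisable set of genes, and 9 of these were examined in lung RNA: Trem2, Apoe, Spp1, Gpnmb, Lpl, Fabp5, Cd9, Cd63 and Lgals3. They were chosen by name, as genes of lipid-associated and profibrotic macrophages, from the 23255 genes of the deposited table. The choice of these genes and of the lists below was made with earlier results of these data known. Their counts set against all genes are therefore a description. All 9 were in the deposited table and passed the filter on low values (mean of 1 CPM or more). Whole lungs of C57BL/6 mice gave 11 libraries. Of these, 5 came from mice that had naphthalene, which injures club cells of the airway lining, and afterwards osimertinib, a lung cancer drug that blocks the EGF receptor. Another 3 came from mice given naphthalene without osimertinib, and 3 came from untreated control mice. The labels give no dose, route, time, age or sex, and do not say whether each library is a separate animal, so the p-values rest on the spread from library to library, which may be technical. The study's title names naive CD4+ T cells and osimertinib pneumonitis. The comparisons ask what the drug added to the naphthalene injury, what naphthalene left by itself, and what both agents gave against untreated lungs.

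Lipid-associated macrophages are found where cells die or lipid accumulates, including injured and scarring lung. Trem2 is a surface receptor for lipids and lipoproteins that signals through the adaptor Tyrobp, and apolipoprotein E (Apoe) is among its ligands. Macrophages that carry Spp1, Gpnmb, Cd9, Cd63, Fabp5 and Lgals3 are known from fibrotic human lung, where they lie beside scars. Several of the 9 genes are also made by other cells: fibroblasts and other cells make Apoe, capillary-bound Lpl comes from fat-storing and muscle cells, and epithelium makes Cd9, Cd63 and Lgals3. In whole lung, more cells of a type and more RNA per cell cannot be told apart.

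Each library held 5045361 to 13009975 reads on genes, and values are normalised read counts in CPM of a library size scaled by edgeR's TMM factors. The naphthalene libraries and osimertinib 2 differed from the rest in 1 way: a gene without a name in the annotation used here (ENSMUSG00000119584) took 43.9 to 60.3% of their reads, against at most 0.0337% in the other 7 libraries. This left 2018541 to 2965328 reads for all other genes in those 4 libraries, so 1 read was worth 0.265 to 0.459 CPM there and 0.0568 to 0.0891 CPM elsewhere. All 3 naphthalene libraries and no control library had this feature, so in comparisons with naphthalene it and the treatment cannot be told apart except through osimertinib 2. Along the first principal component (38.4% of the variance) osimertinib 3 scored 72.7 and naphthalene 3 scored 26.2, against −29.2 to 1.14 for the other 9. Lung tissue was visible in the markers of surfactant-making alveolar type 2 cells, whose summed value lay between 11942 and 28201 CPM in every library.

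The promoters of Trem2 and Gpnmb are shown because these 2 genes had the largest differences between osimertinib and naphthalene lungs. They are RefSeq sequences of build GRCm38.p6, from 250 bases before the transcription start to 50 after it, 5′ to 3′. Capitals mark any match to TGANTCA (an AP-1-like pattern, where N is any base) or to GAGGAAG (a PU.1 motif), on either strand. Trem2 lies at chr17:48346151-48346450 and Gpnmb at chr6:49036268-49036567, both on the plus strand.
Trem2: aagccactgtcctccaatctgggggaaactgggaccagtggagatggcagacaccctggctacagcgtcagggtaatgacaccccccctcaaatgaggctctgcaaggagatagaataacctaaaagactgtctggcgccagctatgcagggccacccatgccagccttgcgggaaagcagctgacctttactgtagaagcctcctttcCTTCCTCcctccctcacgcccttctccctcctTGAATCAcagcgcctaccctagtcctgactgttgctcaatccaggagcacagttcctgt
Gpnmb: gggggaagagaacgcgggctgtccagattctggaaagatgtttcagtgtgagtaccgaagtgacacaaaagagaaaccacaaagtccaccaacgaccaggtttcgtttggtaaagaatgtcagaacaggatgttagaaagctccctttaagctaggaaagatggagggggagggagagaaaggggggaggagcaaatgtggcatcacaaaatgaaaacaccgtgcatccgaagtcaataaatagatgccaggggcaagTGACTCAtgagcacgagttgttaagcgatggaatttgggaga
The Trem2 window held 1 TGANTCA match at −9 and 1 GAGGAAG match, on the minus strand, at −41. The Gpnmb window held 1 TGANTCA match at 9 and no GAGGAAG match; positions are of a motif's first printed base, with 1 at the start site. Of 32851 mouse promoter windows of this length, 7.81% held TGANTCA and 13.6% held GAGGAAG, and no 2 of the matches shown overlapped. The E-box CACGTG, bound by MiT/TFE factors such as Mitf, was in 7.15% of all windows and in neither of these. Promoter windows were found for 7 of the 9 genes, all but Lpl and Fabp5. The other matches were 1 GAGGAAG each in Spp1 (1 of its 2 windows, at −113) and Cd63 (at −60), and the windows of Apoe, Cd9 and Lgals3 held none of the 3 motifs.

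The level of the 9 genes was compared between genes per kilobase of the longest annotated protein-coding transcript. In control lungs the order ran from Cd9 (130 ± 5.11 CPM per kb, SD, n = 3) and Apoe (120 ± 9.03) through Fabp5 (63.7 ± 10.9), Cd63 (50.8 ± 4.63), Lgals3 (42.7 ± 4.77), Lpl (28.7 ± 5.33) and Spp1 (20.0 ± 3.77) to Gpnmb (2.38 ± 0.283) and Trem2 (1.25 ± 0.201). The neighbours Cd9 and Apoe, Fabp5 and Cd63, Cd63 and Lgals3, and Lpl and Spp1 each differed by less than the sum of their SDs. The osimertinib lungs held the same order except that Lgals3 (70.3 ± 53.5 CPM per kb, SD, n = 5) stood just above Cd63 (69.8 ± 23.2), a difference far within their spread. Trem2 and Gpnmb were the scarcest of the set in every group.

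Osimertinib after naphthalene was set against naphthalene alone. All 9 genes had a positive mean log2 difference (Fabp5 turned to −0.041 for osimertinib 2 alone against the naphthalene libraries), the largest for Trem2 and Gpnmb at about 1 log2 unit and the smallest for Cd9 at 0.22, with a median of 0.36 against 0.06 over all 16225 genes tested. A positive difference was found for 60.5% of all genes. None of the 9 passed the test across all genes: limma on log2(CPM + 1) gave Benjamini-Hochberg adjusted p-values of 0.246 to 0.751, and edgeR (0 of all genes) and DESeq2 (0.275% of all genes) on the recovered reads called 0 of the 9. The percentage of all genes called in this comparison was 0 with limma. At an unadjusted limma p under 0.05, 3 of 9 were higher (Trem2, Apoe and Gpnmb), against 7.08% of all genes. The same 3 genes had osimertinib libraries that all lay above all naphthalene libraries, against 3.82% of all genes, and none lay wholly below, where 2.12% of all genes did. The count of 3 became 5 without osimertinib 3 or without control 1, whose spread enters the shared fit, as Lpl and Spp1 joined. With a block for replicate number it became 5, as Cd63 and Spp1 joined. It became 7 with equal totals outside the high-share gene, where 2566 of the 16225 genes were higher at that level, against 1148 as reported. That scaling moved the median of all genes from 0.06 to 0.28.

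**Figure D1:**
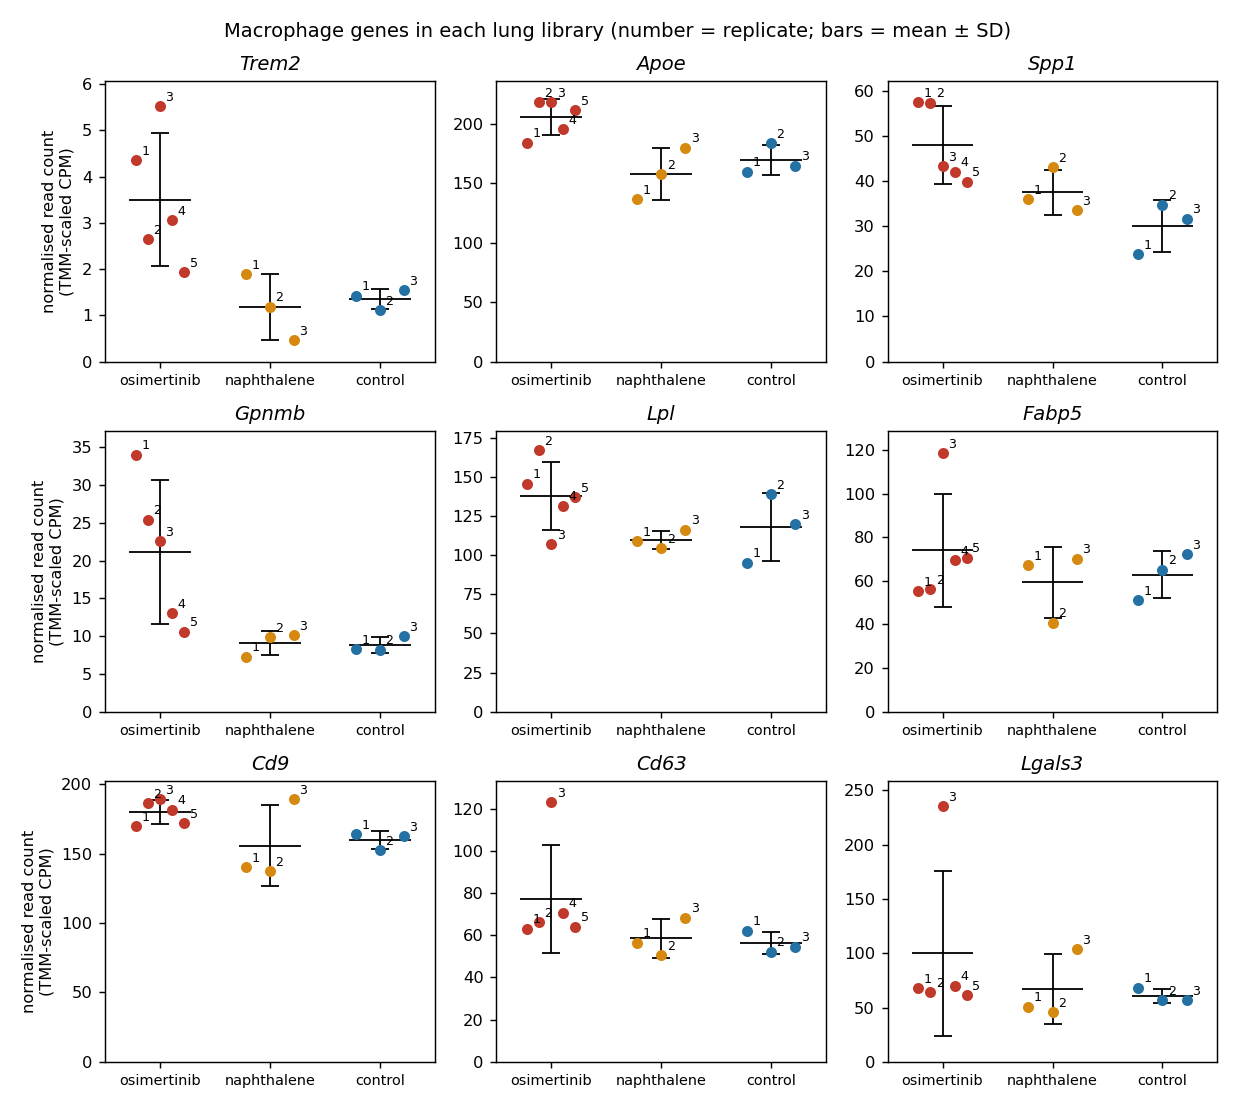
Normalised read counts (TMM-scaled CPM, vertical axes from 0) of the 9 genes in each library, with replicate numbers beside the points and the mean ± SD of each group. Trem2, Gpnmb and Apoe have all 5 osimertinib points above the naphthalene points, while osimertinib 3 is far above the other libraries for Lgals3, Cd63 and Fabp5.

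Trem2 (ENSMUSG00000023992), the lipid receptor, had 4.35, 2.65, 5.52, 3.06 and 1.93 CPM in osimertinib libraries 1 to 5, against 1.89, 1.19 and 0.459 CPM in naphthalene libraries 1 to 3 and 1.42, 1.11 and 1.54 CPM in control libraries 1 to 3. The osimertinib libraries lay above both other groups, but osimertinib 5 was close to naphthalene 1. These values rest on few reads, with 57, 10, 62, 46 and 29 reads in the osimertinib libraries, 6, 3 and 1 in the naphthalene libraries and 25, 17 and 23 in the control libraries. Counting error covers much of the gap at the edge: the exact Poisson 95% interval was 1.29 to 2.78 CPM in osimertinib 5 and 0.695 to 4.12 CPM in naphthalene 1. Osimertinib minus naphthalene was 1.04 on the log2(CPM + 1) scale (SE 0.28, limma adjusted p = 0.246), a scale that understates the change of so low a gene, and 1.49 by edgeR (adjusted p = 0.501); DESeq2 gave 1.46 and no adjusted p. For osimertinib 2 against the naphthalene libraries the difference was 0.80, resting on the 10 reads of osimertinib 2. Tyrobp, the signalling partner of Trem2, was at 65.4 ± 63.0 CPM (SD, n = 5) against 42.3 ± 27.0 CPM (SD, n = 3) in naphthalene lungs, with 178 CPM in osimertinib 3 and 73.4 CPM in naphthalene 3.

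Gpnmb (ENSMUSG00000029816), a membrane glycoprotein of lysosome-rich cells, had 34.0, 25.4, 22.5, 13.0 and 10.6 CPM in osimertinib libraries 1 to 5, against 7.26, 9.89 and 10.1 CPM in naphthalene libraries 1 to 3 and 8.24, 8.19 and 10.03 CPM in control libraries 1 to 3. Osimertinib 1 to 3 stood well clear of every other library, whereas osimertinib 4 and 5 were only a little above the highest naphthalene and control values. The naphthalene and control libraries overlapped throughout. Osimertinib minus naphthalene was 1.03 (SE 0.31, limma adjusted p = 0.275), a ratio of means of 2.33. Blocked by replicate number it was 1.48 (limma adjusted p = 0.173), a value that rests on osimertinib 1 to 3 because no other group has a replicate 4 or 5. Osimertinib 2, alone of its group in having the high-share gene, lay 1.40 above the naphthalene libraries (limma adjusted p = 1.00, taking this lone library to vary as they do).

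Apoe (ENSMUSG00000002985), the apolipoprotein that carries lipid between cells, had 183.8, 217.9, 217.8, 195 and 211 CPM in osimertinib libraries 1 to 5, against 136, 157 and 180 CPM in naphthalene libraries 1 to 3 and 159, 183.6 and 165 CPM in control libraries 1 to 3. The osimertinib libraries lay above all others, although osimertinib 1 and control 2 were nearly equal, and the naphthalene and control libraries overlapped. Osimertinib minus naphthalene was 0.38 (SE 0.11, limma adjusted p = 0.253), and 0.47 for osimertinib 2 against the naphthalene libraries.

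Spp1 (ENSMUSG00000029304) encodes osteopontin, a secreted protein that binds integrins and Cd44. It had 57.6, 57.4, 43.3, 42.1 and 39.8 CPM in osimertinib libraries 1 to 5, against 36.0, 43.1 and 33.5 CPM in naphthalene libraries 1 to 3 and 23.8, 34.8 and 31.7 CPM in control libraries 1 to 3. Osimertinib 1 and 2 were highest, as 2 of the 3 highest Gpnmb libraries, and naphthalene 2 overlapped the lower osimertinib libraries. All 5 osimertinib values lay above all 3 control values. Osimertinib minus naphthalene was 0.34 (SE 0.16, limma adjusted p = 0.504, unadjusted p = 0.0580).

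Lpl (ENSMUSG00000015568), the lipase that frees fatty acids from lipoproteins, had 145, 167, 107, 132 and 137 CPM in osimertinib libraries 1 to 5, against 109, 104 and 116 CPM in naphthalene libraries 1 to 3 and 95.1, 139 and 120 CPM in control libraries 1 to 3. Osimertinib 3 was the low library here and lay within the naphthalene range; the other 4 lay above it. Osimertinib minus naphthalene was 0.31 (SE 0.15, limma adjusted p = 0.491) with all libraries and 0.40 without osimertinib 3. Fabp5 (ENSMUSG00000027533), which binds fatty acids inside cells, had 55.3, 56.1, 119, 69.6 and 70.6 CPM in osimertinib libraries 1 to 5, against 67.3, 40.7 and 70.2 CPM in naphthalene libraries 1 to 3 and 51.2, 65.1 and 72.3 CPM in control libraries 1 to 3. Apart from osimertinib 3 the 3 groups overlapped. Its difference from naphthalene was 0.29 (SE 0.25, limma adjusted p = 0.724), 0.11 without osimertinib 3, 0.048 without naphthalene 2 and −0.041 for osimertinib 2 against the naphthalene libraries.

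Cd9 (ENSMUSG00000030342) and Cd63 (ENSMUSG00000025351) are tetraspanins, membrane proteins of the cell surface and of late endosomes and exosomes. Cd9 had 170, 186, 189.4, 182 and 172 CPM in osimertinib libraries 1 to 5, against 140, 138 and 189.5 CPM in naphthalene libraries 1 to 3 and 164, 153 and 163 CPM in control libraries 1 to 3. Naphthalene 3 was as high as the highest osimertinib library, while naphthalene 1 and 2 were the lowest of all. Cd63 had 63.1, 66.2, 123, 70.6 and 64.0 CPM in osimertinib libraries 1 to 5, against 56.5, 50.6 and 68.4 CPM in naphthalene libraries 1 to 3 and 62.2, 52.3 and 54.7 CPM in control libraries 1 to 3. Osimertinib 3 stood far above all other libraries, the next highest being osimertinib 4. The differences from naphthalene were 0.22 (SE 0.11) for Cd9 and 0.36 (SE 0.20) for Cd63, with limma adjusted p-values of 0.510 and 0.572, and without osimertinib 3 Cd63 was at 0.18. Cd9 was at 0.37 without naphthalene 3 and 0.14 without naphthalene 2.

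Lgals3 (ENSMUSG00000050335) encodes galectin-3, a secreted lectin of macrophages and injured epithelium. It had 67.8, 64.3, 235, 70.2 and 61.4 CPM in osimertinib libraries 1 to 5, against 50.8, 45.9 and 104 CPM in naphthalene libraries 1 to 3 and 68.4, 56.8 and 56.5 CPM in control libraries 1 to 3. The replicates numbered 3 of both groups were high, and the other osimertinib libraries lay within or close to the control range. Osimertinib minus naphthalene was 0.44 (SE 0.40, limma adjusted p = 0.751) with all libraries. It was 0.08 without osimertinib 3, 0.22 without naphthalene 2, 0.80 without naphthalene 3 and 0.69 blocked by replicate number.

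**Figure D2:**
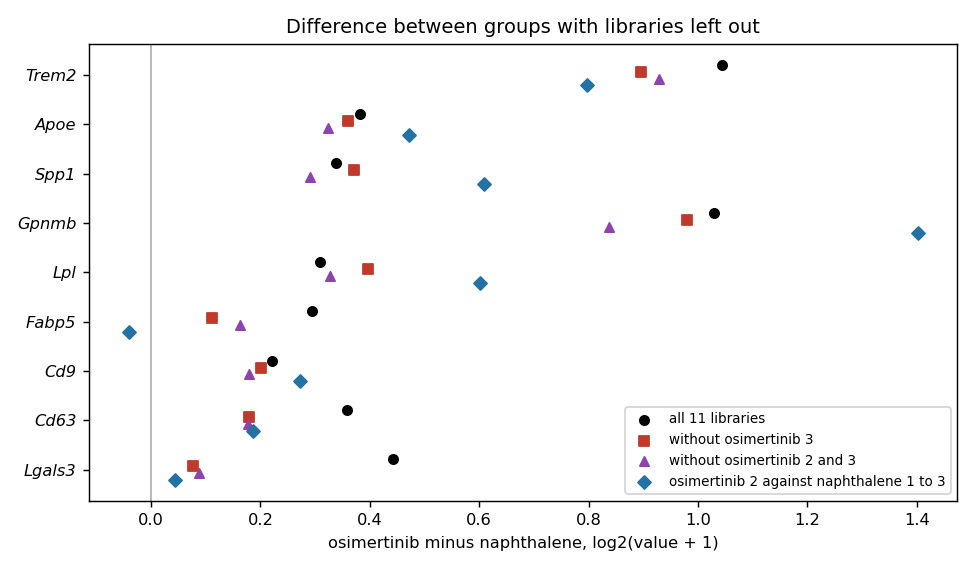
Difference between osimertinib and naphthalene lungs on the log2(CPM + 1) scale for the 9 genes, with all 11 libraries (circles), without osimertinib 3 (squares), without osimertinib 2 and 3 (triangles) and for osimertinib 2 against the 3 naphthalene libraries (diamonds). The lowest of these for Trem2 and Gpnmb is 0.80, for Trem2 in osimertinib 2 against naphthalene, where osimertinib 2 held 10 Trem2 reads. For osimertinib 2 against naphthalene Lgals3 is at 0.044 and Fabp5 at −0.041.

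Naphthalene alone was set against untreated control lungs. The 9 genes scattered around 0, with 4 above and 5 below, from −0.16 for Trem2 to 0.32 for Spp1 and a median of −0.05 against −0.06 over all genes; all 9 were below 0 with libraries scaled to equal totals outside the high-share gene, which moved the median of all genes to −0.47. A positive difference was found for 38% of all genes. No member was called by limma, edgeR or DESeq2 (limma adjusted p = 0.746 to 0.994; 0% of all genes called by limma and edgeR, 0.128% by DESeq2), 0 of 9 had an unadjusted p under 0.05, where 1.73% of all genes were higher and 5.74% lower, and 0 of 9 had groups that did not overlap, where 4.94% of all genes lay higher and 11.2% lower. Osteopontin (Spp1) had the largest value, at 37.5 ± 4.99 CPM in naphthalene lungs against 30.1 ± 5.68 CPM in control lungs (SD, n = 3 each; log2 0.32, 95% interval −0.07 to 0.71). For Trem2 the interval ran from −0.85 to 0.53 and for Lgals3 from −0.93 to 1.02, so the data leave room for changes of that size.

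Osimertinib after naphthalene was also set against untreated control lungs, with the same osimertinib libraries as in the first comparison. Again 9 of 9 genes had a positive mean difference, where 48% of all genes did, and the median was 0.40 against −0.01 over all genes. With libraries scaled to equal totals outside the high-share gene, Fabp5 (−0.02) and Cd9 (−0.04) turned negative. None passed with limma (adjusted p = 0.450 to 0.999; 0.00616% of all genes called), edgeR or DESeq2. With array weights Trem2 (0.82, limma adjusted p = 0.0481) and Spp1 (0.58, limma adjusted p = 0.0471) passed, a setting that called 0.918% of all genes, and the adjusted p ranged up to 1.00 over the alternatives for both. At an unadjusted limma p under 0.05, 4 of 9 were higher against 2.31% of all genes, and with equal totals outside the high-share gene 2, Gpnmb and Trem2. The 4 were Spp1 (0.66, SE 0.16, ratio of means 1.60), Gpnmb (1.06, SE 0.31, ratio 2.396), Trem2 (0.88, SE 0.28, ratio 2.58) and Apoe (0.28, SE 0.11, ratio 1.21). With Cd9 and Cd63, 6 of 9 had osimertinib libraries that all lay above all control libraries, against 2.91% of all genes, and none lay wholly below (3.43% of all genes). Among libraries without the high read share (osimertinib 1, 3, 4 and 5 against the controls) the same 4 genes had an unadjusted p under 0.05, at 0.94 for Trem2, 0.97 for Gpnmb, 0.59 for Spp1 and 0.25 for Apoe (limma adjusted p = 0.776 to 0.927).

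**Figure D3:**
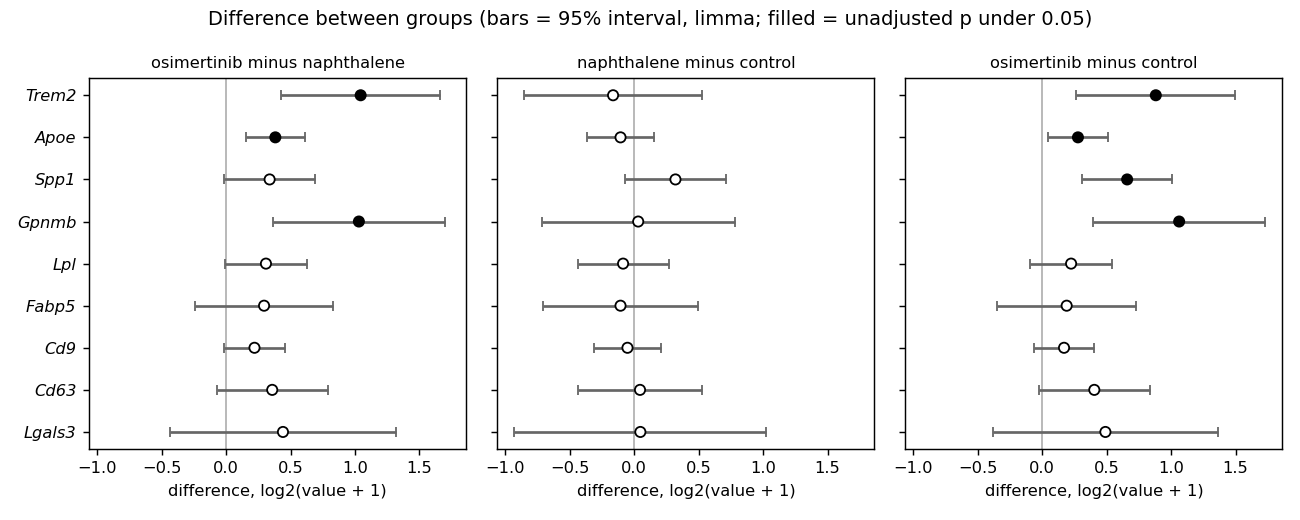
Differences between groups on the log2(CPM + 1) scale with 95% intervals from limma, where filled points have an unadjusted p under 0.05 and no gene passes after adjustment over all genes. Both comparisons of osimertinib lungs have 9 of 9 points above 0, and naphthalene minus control has 4.

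The 9 genes did not vary as 1 block between libraries. Osimertinib 3 held the highest value of Trem2, Fabp5, Cd63 and Lgals3, osimertinib 1 that of Spp1 and Gpnmb, and osimertinib 2 that of Apoe and Lpl, while Cd9 was highest in naphthalene 3. Osimertinib 4 and 5 held no maximum, and naphthalene 2 held 4 of the minima. Of the 36 pairs of genes, 5 had a Pearson correlation over the 11 libraries with an adjusted permutation p under 0.05. These 5 are given in order of r. Cd63 and Lgals3 had r = 0.954 and rho = 0.873 (permutation p = 0.00026 and 0.00054, adjusted over the 36 pairs 0.00312 and 0.0084), and r was 0.702 without osimertinib 3 and naphthalene 2. Spp1 and Gpnmb had r = 0.813 and rho = 0.727 (permutation p = 0.00126 and 0.0151, adjusted 0.0113 and 0.0798), and r = 0.790 without osimertinib 1 and control 1. Apoe and Cd9 had r = 0.788 and rho = 0.727 (permutation p = 0.00534 and 0.0133, adjusted 0.0385 and 0.0798), and r = 0.659 without osimertinib 2 and naphthalene 1. Cd9 and Cd63 had r = 0.702 and rho = 0.927 (permutation p = 0.00016 and 0.00012, adjusted 0.00288 and 0.00432). Cd9 and Lgals3 had r = 0.686 and rho = 0.873 (permutation p = 6e-05 and 0.0007, adjusted 0.00216 and 0.0084). Without naphthalene 1 and 2 these last pairs had r = 0.7085 and 0.636. Within the 7 libraries without the high read share r was 0.975, 0.848, 0.673, 0.868 and 0.7435 for the 5 pairs in that order. The 4 libraries with it were too few for a value. Values of a library share its depth and scaling, and the 3 treatment groups are pooled in these correlations.

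**Figure D4:**
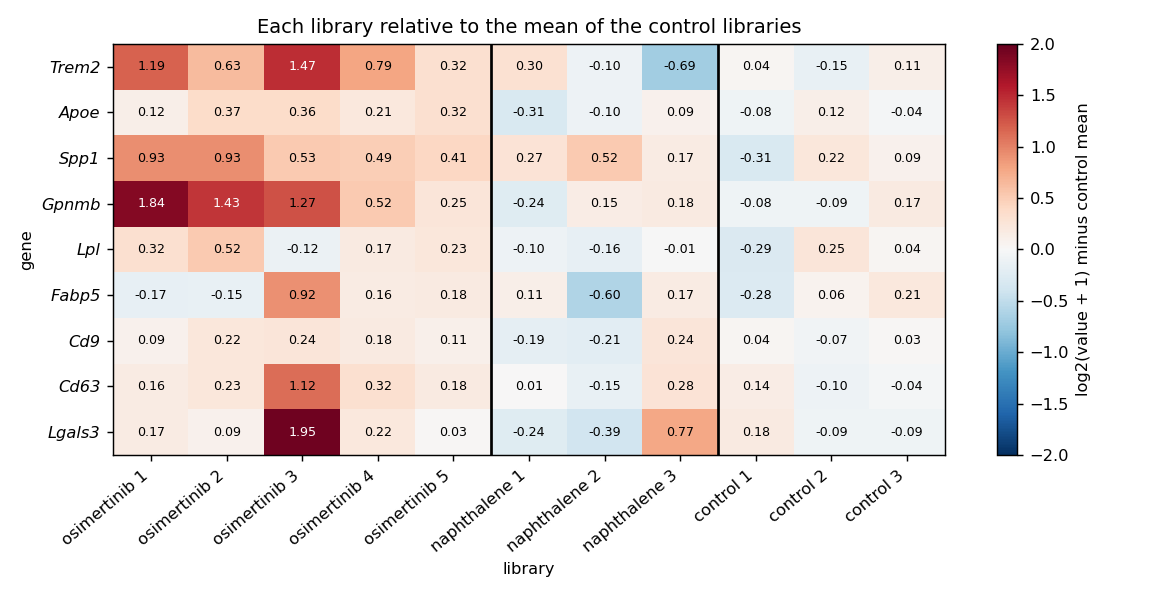
Log2(CPM + 1) of each gene in each library minus the mean of the 3 control libraries, as colour and number. Osimertinib 1 and 2 have their largest values for Gpnmb (1.84 and 1.43), osimertinib 3 for Lgals3 (1.95), and osimertinib 5 has no value above 0.41.

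For each gene, the nearest others over the 11 libraries were sought by Pearson correlation of log2(CPM + 1) among 11651 named genes averaging 5 CPM or more. Gpnmb lay nearest to Ctss (r = 0.887), a lysosomal protease of antigen-presenting cells, to Lipa (r = 0.867), the lysosomal acid lipase, and to Clec4n (r = 0.855), a C-type lectin receptor of myeloid cells. Apoe lay nearest to Gbp3 (r = 0.944) and Ifit3b (r = 0.916), both interferon-induced genes, and to Lrp12 (r = 0.896). Lgals3 had the closest partners, Slc25a5 (r = 0.995), the mitochondrial ADP/ATP carrier, Nsa2 (r = 0.993), a ribosome assembly factor, and Atraid (r = 0.990). Without osimertinib 3 these 3 partners of Lgals3 had r = 0.984, 0.975 and 0.974.
Trem2 lay nearest to Ifi211 (r = 0.909), Sccpdh (r = 0.908) and Phf10 (r = 0.902), and Spp1 to Il1rl2 (r = 0.926), the interleukin 36 receptor, Fut4 (r = 0.907) and Sgpl1 (r = 0.901). Lpl lay nearest to Susd6 (r = 0.926), the protease Furin (r = 0.869) and Appbp2 (r = 0.867). Among the genes nearest to Fabp5 were Acsl5 (r = 0.946), which activates fatty acids, and Gm14005 (r = 0.938). Cd9 lay nearest to Tmem41a (r = 0.963), Naaa (r = 0.962) and Zfand6 (r = 0.937), and Cd63 to Igsf5 (r = 0.980), Ccl21a (r = 0.972) and Lgals9 (r = 0.971). These partners were picked as the highest of many correlations, so the values are a description and carry no test.

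Partners, receptors and regulators of the 9 genes were taken from 11 lists of 86 genes, of which 81 were tested. In osimertinib against naphthalene limma called 0 of the 81 (0% of all genes), edgeR 0 and DESeq2 1, the integrin subunit Itgb5, against 0.275% of all genes; 15 were higher and 2 lower at an unadjusted limma p under 0.05, where 7.08% and 3.22% of all genes were. Those counts were 18 and 4 without osimertinib 3, and the median log2 difference over the 81 was 0.14, against 0.06 over all genes. Without osimertinib 3 that median was 0.09 and limma called 1, in the list of profibrotic products.

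Of the 8 osteopontin receptor genes, 3 (Itgb5, Itga5 and Cd44) were higher and 1 (Itga4) lower at an unadjusted limma p under 0.05. Over all genes these shares were 7.08% and 3.22%. The median log2 difference of the 8 was 0.10, against 0.06 over all genes. Itgb5 was at 64.5 ± 6.82 CPM in osimertinib lungs against 44.9 ± 6.82 CPM in naphthalene lungs (SD, n = 5 and 3, log2 0.52, limma adjusted p = 0.188, DESeq2 adjusted p = 0.0492), but control lungs stood at 60.9 ± 1.06 CPM. Itga5, the fibronectin receptor subunit, was at 34.8 ± 2.85 CPM against 23.4 ± 5.33 CPM (limma adjusted p = 0.191). Itga4, an integrin subunit of lymphocytes and monocytes, was at 65.9 ± 9.26 CPM against 90.6 ± 6.63 CPM (log2 −0.46, limma adjusted p = 0.233). The osimertinib libraries lay wholly above the naphthalene libraries for Itgb5 and Itga5, where 3.82% of all genes did. They lay wholly below for Itga4, where 2.12% of all genes did.

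Among 11 other products of profibrotic macrophages, Mmp19, a matrix metalloproteinase, was at 18.4 ± 2.76 CPM in osimertinib lungs against 10.2 ± 0.963 CPM in naphthalene lungs (SD, n = 5 and 3, limma adjusted p = 0.169). Timp1, an inhibitor of such proteases, was at 5.12 ± 2.07 CPM against 2.57 ± 1.22 CPM (limma adjusted p = 0.376). The groups did not overlap for Mmp19, where 3.82% of all genes lay wholly higher. Other genes of the lists also lay wholly higher, among them Lgals3bp, and some wholly lower, among them Cd37, where 2.12% of all genes did. Of 13 other lipid-associated macrophage genes tested, 11 had a positive difference, where 60.5% of all genes did, and 5 were higher at an unadjusted p under 0.05, where 7.08% of all genes were, with a median of 0.33 against 0.06. Itgax, the integrin subunit CD11c of alveolar macrophages and dendritic cells, was at 55.1 ± 8.42 CPM against 36.4 ± 9.92 CPM (limma adjusted p = 0.237), and Ctsl, a lysosomal protease, was at 80.1 ± 4.80 CPM against 63.2 ± 11.6 CPM (limma adjusted p = 0.290).

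Of 12 genes of lipid uptake, storage and efflux 1 was higher at an unadjusted p under 0.05, near the 7.08% of all genes. This was Lipa, at 62.2 ± 6.01 CPM in osimertinib lungs against 52.5 ± 4.08 CPM in naphthalene lungs (limma adjusted p = 0.413), and Scarb1, the HDL receptor, came next (limma adjusted p = 0.513). Angptl4, a secreted inhibitor of Lpl, was at 30.0 ± 8.27 CPM against 12.8 ± 10.4 CPM (log2 1.37, limma adjusted p = 0.3796), and its control libraries ranged as widely, at 30.3, 5.63 and 6.75 CPM. Of the 7 Apoe receptor and neighbouring apolipoprotein genes tested and the 3 other fatty acid binding proteins tested, 0 had an unadjusted limma p under 0.05. The nearest were Sorl1 (limma adjusted p = 0.655) and Apoc1 (0.806), and Fabp4 (0.880) and Fabp3 (0.917). Fabp4 was at 3.51 to 8.55 CPM in osimertinib libraries, against 2.21, 40.3 and 4.13 CPM in naphthalene libraries 1 to 3, so the higher naphthalene mean rests on naphthalene 2.
Lgals3bp, a galectin-3 binding glycoprotein, was at 74.1 ± 16.8 CPM in osimertinib lungs against 50.2 ± 1.43 CPM in naphthalene lungs (limma adjusted p = 0.297), and Lgals9 at 52.5 ± 23.1 CPM against 39.4 ± 8.39 CPM. Tfec, a MiT/TFE factor of myeloid cells, was at 6.86 ± 1.08 CPM against 4.29 ± 1.06 CPM (limma adjusted p = 0.312), and Mitf at 15.3 ± 2.28 CPM against 13.8 ± 1.87 CPM. In the Trem2 signalling list Ms4a7 was at 4.02 ± 1.56 CPM against 1.84 ± 1.45 CPM (limma adjusted p = 0.368) and the kinase Syk at 52.5 ± 8.40 CPM against 62.7 ± 4.496 CPM. The leukocyte tetraspanin Cd37, a gene of B cells, was at 13.5 ± 4.07 CPM against 21.8 ± 3.78 CPM (log2 −0.70, limma adjusted p = 0.341), and Cd53 at 40.7 ± 4.44 CPM against 49.0 ± 9.68 CPM. The 6 B cell markers summed to 33.1 to 81.3 CPM in osimertinib libraries, 116 to 174 CPM in naphthalene libraries and 108 to 172 CPM in control libraries. In osimertinib against naphthalene 6 of 6 were lower at an unadjusted limma p under 0.05, where 3.22% of all genes were, with a median of −1.05. DESeq2 called 3 of them (Cd79a, Pax5 and Ms4a1), against 0.275% of all genes, and limma and edgeR called 0. Their part in the Cd37 value was not tested.

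In naphthalene against control, limma called 0 of the 81 genes (0% of all genes), edgeR 0 (0% of all genes) and DESeq2 0 (0.128% of all genes). At an unadjusted limma p under 0.05, 3 were higher and 2 lower, where 1.73% and 5.74% of all genes were. In osimertinib against control limma and edgeR called 0 and DESeq2 5 (Ms4a7, Tfec, Itgax, Chil1 and Lilrb4a, against 0.471% of all genes), all higher, with 23 higher and 3 lower at an unadjusted limma p under 0.05, where 2.31% and 2.5% of all genes were. Both comparisons share the control libraries. Lilrb4a, an inhibitory receptor of myeloid cells, was at 33.0 ± 3.01 CPM in osimertinib lungs (SD, n = 5) and 32.7 ± 2.21 CPM in naphthalene lungs (SD, n = 3), against 22.3 ± 2.09 CPM in control lungs (SD, n = 3). Chil1, a chitinase-like protein, was at 639 ± 139 CPM in osimertinib lungs and 579 ± 69.0 CPM in naphthalene lungs, against 397 ± 23.6 CPM in control lungs. For both genes all 3 naphthalene libraries lay above all control libraries, as they did for 4.94% of all genes. Other genes of the lists lay wholly above as well, and some lay wholly below, where 11.2% of all genes did.

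Markers of the cells that could carry the 9 genes were summed per library. The 12 markers of monocyte-derived macrophages summed to 242 to 380 CPM in osimertinib libraries, 207 to 209 CPM in naphthalene libraries and 217 to 241 CPM in control libraries, with none of the 12 at 0. In osimertinib against naphthalene 12 of 12 had a positive difference, where 60.5% of all genes did, and 8 were higher at an unadjusted limma p under 0.05, where 7.08% of all genes were. Both counts were the same without osimertinib 3. None of the 12 was called by limma, edgeR or DESeq2, which called 0, 0 and 0.275% of all genes, and Ms4a7 is also in the Trem2 list. The complement genes C1qa, C1qb and C1qc, defining macrophage genes, were highest in osimertinib 3, at 30.9, 37.3 and 40.4 CPM. The 11 alveolar macrophage markers summed to 661 to 1241 CPM in osimertinib libraries, 487 to 788 CPM in naphthalene libraries and 496 to 549 CPM in control libraries, again with none at 0. Against naphthalene 10 of these 11 had a positive difference and 2 were higher at that level, or 9 and 0 without osimertinib 3. Against control 5 of the 12 and 5 of the 11 were higher, where 2.31% of all genes were. The medians there were 0.44 and 0.46. The part of either list in the values of the 9 genes was not tested.

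The neutrophil markers in the table, 7 of the 8 listed, summed to 397 CPM in osimertinib 3 and 389 CPM in naphthalene 3, against 28.9 to 70.1 CPM in the other 9 libraries. Those 2 libraries also had the highest Lgals3 and Tyrobp. Surfactant-cell markers were highest there too, at 28201 CPM in osimertinib 3 and 19375 CPM in naphthalene 3. Adipocyte markers, which go with Lpl and Fabp4 in fat, summed to 204 CPM in naphthalene 2 and 182 CPM in control 2, against 7.80 to 31.1 CPM elsewhere, and Lpl was 104 and 139 CPM in those 2 libraries. Cardiac muscle markers ranged from 35.3 to 87.9 CPM in osimertinib libraries, 29.8 to 70.8 CPM in naphthalene libraries and 45.2 to 77.3 CPM in control libraries. Fibroblast markers, of cells that also make Apoe, Lpl and Cd63, summed to 1766 to 2121 CPM in osimertinib libraries, 1409 to 1926 CPM in naphthalene libraries and 1426 to 1652 CPM in control libraries. Platelet markers, of cells rich in Cd9, summed to 19.1 to 30.4 CPM in osimertinib libraries, 11.9 to 21.8 CPM in naphthalene libraries and 16.0 to 37.7 CPM in control libraries. Markers of melanocytes, which make Gpnmb, were near 0, at 0.459 to 2.13 CPM over all libraries. The part of these cells in the 9 genes was not tested.

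**Figure D5:**
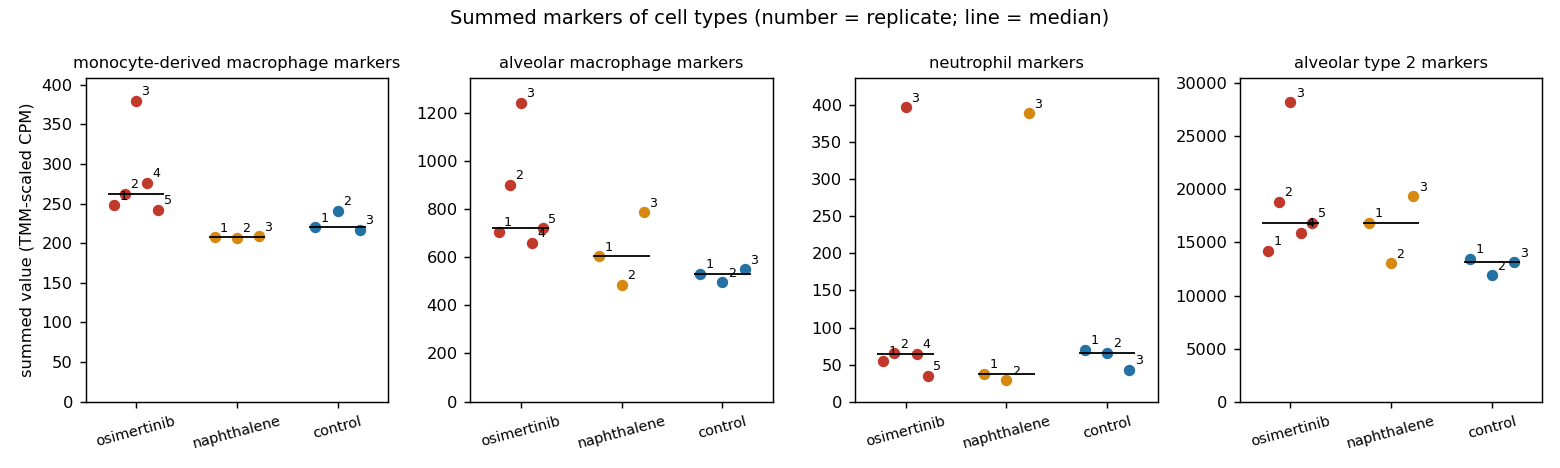
Summed values (TMM-scaled CPM, vertical axes from 0) of marker genes for 4 cell types in each library, with replicate numbers and the group median as a line. Monocyte-derived macrophage markers lie between 242 and 380 CPM in osimertinib libraries and between 207 and 209 CPM in naphthalene libraries, and neutrophil markers stand out in osimertinib 3 and naphthalene 3.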

How the data were processed

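Lung RNA was depleted of ribosomal RNA and made into strand-specific libraries, per the labels' protocols. What the authors deposited is a signal: CPM after each library's size was scaled. Trimmomatic 0.38, RSEM 1.3.0, Bowtie2, edgeR and GRCm39 are named, without roles or settings, per the submitters' processing notes. All values (100%) were whole multiples of 1 read within 0.01, so whole reads were recovered from them, and the implied factors equalled edgeR's TMM factors. Gene names and transcript lengths came from GENCODE M21 (GRCm38), which named 23123 of 23255 genes.

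limma 3.58.1 (R 4.3.3) was run on log2(value + 1), with a trend of variance on level and all 3 groups in 1 fit. The 16225 genes averaging 1 CPM or more entered, adjusted together by Benjamini-Hochberg at 0.05. The procedure was also run on simulated counts that held no outlying library, and the outcome is not reported here. Alternatives tried were other pseudocounts (0.1, 5), other filters on low values (none, 5), median-ratio scaling, equal totals outside the high-share gene, fits of the 2 groups compared only, array weights, a replicate block, leaving libraries out, splitting by the high read share, and tests of the reads by DESeq2 1.42.0 and by edgeR 4.0.16. Poisson intervals cover counting error only. Members and lists were chosen with earlier results of these data known. From each list the genes named were any called by limma and the 2 of smallest p in osimertinib against naphthalene. Tyrobp, Itga4, Cd44, C1qa, C1qb, C1qc, Cd79a, Pax5, Ms4a1 and the genes called by DESeq2 alone were named after their values were seen. A few genes that these rules pick are not reported here.

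Same-numbered osimertinib and naphthalene libraries had positively correlated deviations from their group means (r = 0.122, 0.159 and 0.523 across genes). Only number 3 stood above all differently numbered pairs. Osimertinib 1 correlated better with naphthalene 2 (0.137), osimertinib 2 with naphthalene 1 (0.193), and naphthalene 1 and 2 with osimertinib 4 (0.229 and 0.270). Naphthalene 2 had r = 0.203 with control 2, against −0.064 and −0.093 for the same-numbered pairs 1 and 3. The same numbers of osimertinib and control gave −0.038, 0.075 and −0.152. Any pairing comes from the values alone. The reported fit took no pairs, and the replicate block, which includes the controls, is an alternative only.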

Additional observations from a re-analysis of the deposited data

Results flagged for a closer look

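In the osimertinib group, the highest of the 5 libraries was far from the other 4 for 3 of the 9 genes, judged by its gap to the nearest value as a share of the group's range (Dixon's 95% critical value 0.710). Both ends of each group were examined, on CPM without logs. Chance gives such a gap at either end in about 1 in 20 groups of normally distributed values. The 9 genes were examined in the same 5 libraries, so their results are not independent of each other. The library was osimertinib 3 each time. Lgals3 was at 235.4 CPM there (share 0.950), Cd63 at 123 CPM (share 0.874) and Fabp5 at 118.7 CPM (share 0.759). The summed neutrophil markers were also highest in that library, at 397 CPM; their part in these values was not tested.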

How the results depend on the processing

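Over 27 results, 609 values under alternatives kept direction and side of the threshold, 25 reversed and 2 passed newly. Genes called in osimertinib against naphthalene, 0 as reported, numbered 7 with equal totals outside the high-share gene, 1 with only the 2 groups compared, 4 with array weights, 47 without osimertinib 2 and 3, and 34 with DESeq2, and 0 to 11 with 1 library left out. Members at an unadjusted p under 0.05 numbered 7 with equal totals, 5 with array weights and 5 with the replicate block, against 3 as reported, and 3 to 5 with 1 library left out. Equal totals moved the median of all genes to 0.28 in this comparison. In naphthalene against control 21 genes were called with only the 2 groups compared, 5 with array weights, 38 without osimertinib 2 and 3, 13 with DESeq2 and 0 to 12 with 1 library left out, against 0. Members above 0 numbered 0 with equal totals and 2 to 5 with 1 library left out, against 4. In osimertinib against control, where 1 gene was called, 0 were with equal totals or the replicate block, 149 with array weights, 2 with low-share libraries only, 2 without osimertinib 2 and 3, 76 with DESeq2 and 0 to 2 with 1 library left out. Members at an unadjusted p under 0.05 numbered 2 with equal totals, against 4, and array weights called 2 members, against 0.

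Most reversals were in naphthalene against control. With equal totals, which move the median of all genes there to −0.47, Spp1 was −0.12, Gpnmb −0.38, Cd63 −0.40 and Lgals3 −0.40. With array weights Trem2 was 0.009018, Gpnmb −0.048 and Lgals3 −0.085, and Cd9 was 0.0047 with median-ratio scaling and 0.011 with DESeq2. With 1 library left out, the range was −0.40 to 0.10 for Trem2, −0.044 to 0.17 for Gpnmb, −0.23 to 0.039 for Lpl, −0.24 to 0.14 for Fabp5, −0.20 to 0.029 for Cd9, −0.071 to 0.14 for Cd63 and −0.31 to 0.27 for Lgals3. In osimertinib against naphthalene Fabp5 was −0.041 in high-share libraries only, and in osimertinib against control Fabp5 was −0.016 and Cd9 −0.037 with equal totals. The causes were not tested. The replicate block changed no member's call. Depth limits Trem2 most, with 10 reads in the 3 naphthalene libraries together.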
